A study of Homo sapiens with 12 samples.

Results

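The 57 genes described here are those of the MYC network, of ribosome assembly and of RNA polymerases I and III, chosen by symbol for what their products do and found by name among the 63241 genes counted in each library. They comprise 9 genes of the MYC network, 6 nucleolar proteins, 9 proteins of the small nucleolar ribonucleoproteins (snoRNPs), 11 factors of the small ribosomal subunit, 9 of the large subunit, 8 subunits and factors of polymerase I and 5 of polymerase III. Of the 57 genes, 56 had enough counts to be tested. MYCN had 2 counts over all 12 libraries and was not tested.

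Poly-A RNA of the prostate cancer line MDA-PCa-2b, an established human line, was sequenced in 4 groups of 3 libraries. KDR is labelled as a rescue of knockdown 2 of DHODH, KD2 as knockdown 2, KD1 as knockdown 1, and NT carries only that name. The product of DHODH, dihydroorotate dehydrogenase, carries out a mitochondrial step of pyrimidine synthesis, and pyrimidines are building blocks of ribosomal RNA. The labels do not state what NT stands for, which construct made a knockdown, how the rescue was made, or whether the libraries of a group came from separate cultures, and p-values therefore reflect a spread that may be technical. The growth protocol also names a sister line, MDA-PCa-2a.

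DHODH RNA did not go with the knockdown labels. It stood at 17.5 to 19.2 counts per 1000000 counts (CPM) in KDR, 11.4 to 14.9 CPM in the libraries labelled KD2, 9.63 to 11 CPM in the libraries labelled KD1 and 8.95 to 13.4 CPM in NT. The log2 fold change of DHODH in KD2 against NT was 0.31 ± 0.14 (SE; edgeR, Benjamini-Hochberg adjusted p = 0.097), and without NT replicate 2 it was 0.52 (adjusted p = 0.0014). The directions given here therefore go by the groups' labels, since no loss of DHODH RNA was measured. Libraries held 23786288 to 38240369 counts. NT replicate 2 stood apart from the other NT libraries: the chi-square of its counts per gene was 25.3 and 27.1 against NT replicates 1 and 3, and 8.32 between those. The typical spread between replicates was 5.53% in KDR, 7.17% in KD2, 6.62% in KD1 and 15.7% in NT, or 8.56% in NT without replicate 2. Luminal prostate genes such as KLK3, which encodes prostate-specific antigen, were abundant in every library, and the 4 immune markers summed to at most 0.264 CPM in any library.

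Ribosomes are assembled in the nucleolus. RNA polymerase I transcribes the long ribosomal RNA precursor there, polymerase III transcribes the short 5S ribosomal RNA and transfer RNAs, and snoRNPs modify the precursor while many assembly factors fold and cut it into the small and large subunits. MYC, which pairs with MAX, binds the E-box CACGTG in many of these genes and raises their transcription. The MXD proteins, MXI1 and MNT compete for MAX and repress at the same sites.

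The letters CACGTG are shown here because the E-box is the sequence that MYC-MAX dimers read. They were searched in promoter windows from RefSeq on GRCh38.p14, each running from 250 bases before to 50 bases after a transcript start of a gene. The motif is its own reverse complement, so both strands are covered by a single search. A gene can have several windows (35116 windows for 27305 genes in all) and was counted once. At least 1 window was at hand for 47 of the 57 genes. The 10 genes without a window were BOP1, MAF1, MYC, NOLC1, NOP58, POLR1E, POLR3G, RRP12, RRP1B and RRS1. Of the 47 genes, 17 held at least 1 E-box (36.2%). The share was 1456 of 12214 among the genes tested that had a window (11.9%), and 8.77% among all genes with a window. The 6 genes with an E-box that were not called in KD2 against NT (GAR1, LTV1, MNT, NOP2, PES1 and RRP9) are not shown as sequences. Each line below gives 30 bases in the direction of transcription with the E-box in capitals. Genes that were higher in KD2 than in NT come first, then MXD4 and NOP10, which were lower.
FBL (chr19:39846356-39846385, minus strand): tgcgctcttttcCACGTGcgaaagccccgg
WDR43 (chr2:28894658-28894687, plus strand): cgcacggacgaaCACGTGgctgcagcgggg
GNL3 (chr3:52686026-52686055, plus strand): ggcttcagttcaCACGTGgcgccagcggag
BYSL (chr6:41921515-41921544, plus strand): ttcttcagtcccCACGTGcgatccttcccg
NOP14 (chr4:2963374-2963403, minus strand): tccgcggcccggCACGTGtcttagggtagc
UTP4 (chr16:69132621-69132650, plus strand): agagcgcgcgcgCACGTGgggccggggcgg
UTP20 (chr12:101280083-101280112, plus strand): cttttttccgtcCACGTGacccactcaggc
DDX21 (chr10:68956604-68956633, plus strand): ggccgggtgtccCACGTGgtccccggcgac
POLR3A (chr10:78029533-78029562, minus strand): agaggaagcggaCACGTGggacactctacg
NOP10, first box (chr15:34343130-34343159, minus strand): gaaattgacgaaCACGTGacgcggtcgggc
NOP10, second box (chr15:34343289-34343318, minus strand): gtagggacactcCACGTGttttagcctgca
MXD4 (chr4:2262330-2262359, minus strand): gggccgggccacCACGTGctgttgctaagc
An E-box lay within 50 bases of a start in 15 of the 47 genes (31.9%), against 606 of the 12214 genes tested that had a window (4.96%). Those of FBL and GNL3 began 7 bases and that of WDR43 4 bases from the start, within the transcript; those of UTP20, UTP4, DDX21 and POLR3A began 10, 16, 31 and 35 bases before it. The boxes were spread unevenly over the groups of genes. Of the genes with a window, 6 of 10 small subunit factors, 4 of 7 snoRNP proteins and 0 of 7 polymerase I genes had them. The polymerase I gene POLR1E had no window and is not among the 7. These letters describe a window and do not show that MYC was bound there.

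**Figure D1:**
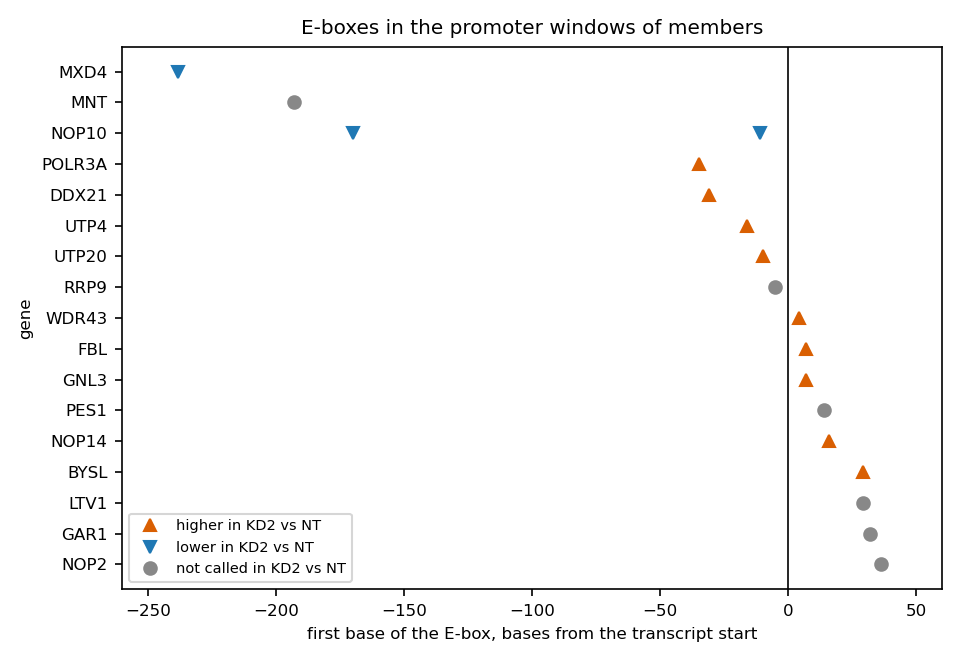
Distance in bases from the start of each gene (x axis) to the first base of each CACGTG E-box in the promoter windows of the 17 genes that held 1 (y axis); the marker shows the call in KD2 against NT. In 15 genes an E-box lies within 50 bases of the start; those of MXD4 and MNT lie 238 and 193 bases before it, and the second box of NOP10 lies 170 bases before it.

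MYC and most genes of ribosome assembly were higher in KD2 than in NT, and most of those were lower in KDR than in KD2. In KD2 against NT, 34 of the 56 genes tested were called higher (60.7%) and 3 lower (5.36%), against 17.8% higher and 18.2% lower of all 19373 genes tested (edgeR, Benjamini-Hochberg adjusted p under 0.05). The genes' median log2 fold change was 0.26, and that of all genes -0.01. In KDR against KD2, 2 were higher (3.57%) and 33 lower (58.9%), against 15.3% higher and 17.1% lower of all genes; their median was -0.24, and that of all genes 0.02. In KDR against NT, 7 were higher (12.5%) and 3 lower (5.36%), against 13% and 14.5% of all genes, so the share called higher was near the background. The median of the 56 genes in KDR against NT was 0.03. These 3 comparisons share libraries, so their counts are not independent of each other. Without NT replicate 2, 40 genes were higher and 3 lower in KD2 against NT, and 10 were higher and 5 lower in KDR against NT.

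The changes were modest in size. Summed over the 57 genes, the level was 5039 to 5101 CPM in KDR, 5928 to 5967 CPM in KD2, 4843 to 4908 CPM in KD1 and 4886 to 5041 CPM in NT. The KD2 libraries lay above all others, and the KDR range overlapped that of NT. In KD2 against NT the log2 fold change of a single gene ran between -0.40 for NOP10 and 1.02 for MYC. In bulk RNA, a change in the share of cells that express a gene and a change in RNA per cell cannot be told apart.

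**Figure D2:**
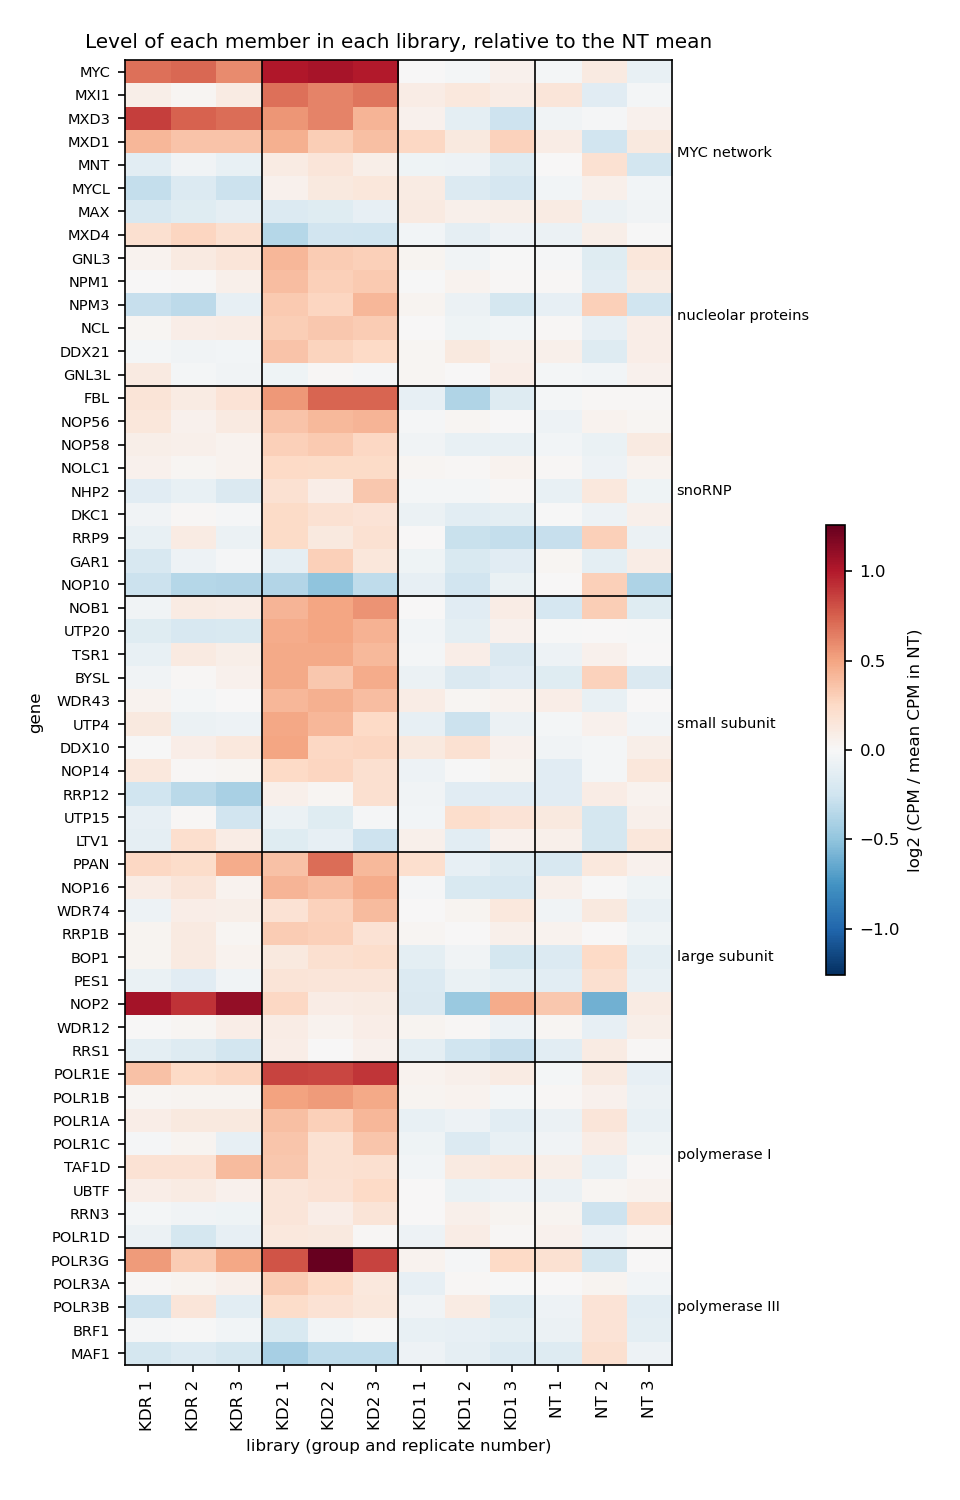
Colour shows log2 of the CPM in each library over the mean CPM in NT for the 56 genes tested (rows, grouped by role), with libraries in columns. The 3 KD2 columns are red for most genes, the KDR columns are paler, with MYC, MXD3, NOP2 and POLR3G still red and RRP12 and NOP10 blue, and NT replicate 2 differs from the other NT libraries at many genes.

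MYC had the largest log2 fold change of the 56 genes in KD2 against NT, and it was above NT in KDR as well. It stood at 146, 150 and 137 CPM in the KDR libraries, 182, 187 and 182 CPM in KD2, 91.4, 89.1 and 94.1 CPM in KD1, and 89.3, 98.2 and 85 CPM in NT. All KD2 libraries lay above all KDR libraries, all KDR libraries lay above those of KD1 and NT, and KD1 overlapped NT. The level in KD2 was 2.02-fold that in NT, a log2 fold change of 1.02 ± 0.06 (SE; edgeR, Benjamini-Hochberg adjusted p = 9.7e-12). The log2 fold change was -0.35 ± 0.06 in KDR against KD2 (adjusted p = 0.00012) and 0.67 ± 0.06 in KDR against NT (adjusted p = 2.2e-08). None of these calls was lost in any of the 19 alternatives.

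Its partner MAX did not follow. MAX stood at 70.7, 72.9 and 75.2 CPM in KDR, 71.9, 73 and 75.5 CPM in KD2, and 87.5, 77.4 and 78.7 CPM in NT. The KDR and KD2 libraries overlapped each other and lay below NT. The log2 fold change of -0.15 ± 0.06 in KD2 against NT was not called by edgeR (Benjamini-Hochberg adjusted p = 0.086, and 0.012 without NT replicate 2). All KD1 libraries (88, 84.7 and 85.5 CPM) lay above those of KD2, and edgeR called MAX lower in KD2 than in KD1. That call was kept in all 19 alternatives (log2 fold change -0.25 to -0.21). MYCL, a paralog of MYC, was called lower in KDR than in KD2 by edgeR, with 18.7, 20.4 and 19 CPM in KDR against 23.8, 25.1 and 25.3 CPM in KD2 (log2 fold change -0.35 ± 0.10, Benjamini-Hochberg adjusted p = 0.0067). NT held 22.4, 24.1 and 22.4 CPM of MYCL, above all KDR libraries, though KDR against NT was not called (-0.25 ± 0.10, adjusted p = 0.061; 0.049 without KD1 replicate 1).

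The repressors that compete for MAX did not move as a block. MXI1 stood at 87.8, 84.8 and 89.3 CPM in KDR, 134, 128 and 132 CPM in KD2, and 92.7, 75.2 and 81.6 CPM in NT. KD2 lay apart, and KDR lay within the range of NT. The rise of MXI1 in KD2 against NT was 0.66 ± 0.07 on the log2 scale (edgeR, Benjamini-Hochberg adjusted p = 5.6e-08), and the log2 fold change in KDR against KD2 was -0.59 ± 0.07 (adjusted p = 4.1e-07).

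MXD4 went the other way, with 156, 164 and 156 CPM in KDR, 106, 115 and 114 CPM in KD2, and 129, 142 and 135 CPM in NT. The 3 groups did not overlap, with KD2 lowest and KDR highest. By edgeR with Benjamini-Hochberg adjustment, MXD4 fell in KD2 against NT (log2 fold change -0.28 ± 0.06, adjusted p = 0.00056) and was higher in KDR than in KD2 (0.51 ± 0.06, adjusted p = 4.7e-07) and than in NT (0.23 ± 0.06, adjusted p = 0.0058).

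MXD3 and MXD1 were higher than NT in both KDR and KD2. MXD3 stood at 13.9, 12.7 and 12.4 CPM in KDR, 11.2, 11.7 and 10.2 CPM in KD2, and 7.36, 7.54 and 7.89 CPM in NT, and no KDR or KD2 library reached down to NT. Its log2 fold change was 0.78 ± 0.12 in KDR against NT (edgeR, Benjamini-Hochberg adjusted p = 4.6e-05) and 0.54 ± 0.12 in KD2 against NT (adjusted p = 0.0015). Of MXD3 exon bases, 43.7% are shared with other annotated genes, so its counts may miss or mix reads. MXD1 was 0.38 ± 0.10 above NT in KDR (adjusted p = 0.0052) and 0.38 ± 0.10 above NT in KD2 (adjusted p = 0.0037). The KD1 libraries of MXD1 (25.23, 23 and 25.87 CPM) also lay above NT (22.58, 17.85 and 22.94 CPM). KD1 against NT was not called for MXD1 (0.23 ± 0.10, adjusted p = 0.79), nor was KD2 against KD1. MNT, a further MAX partner, was called in neither of these comparisons.

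**Figure D3:**
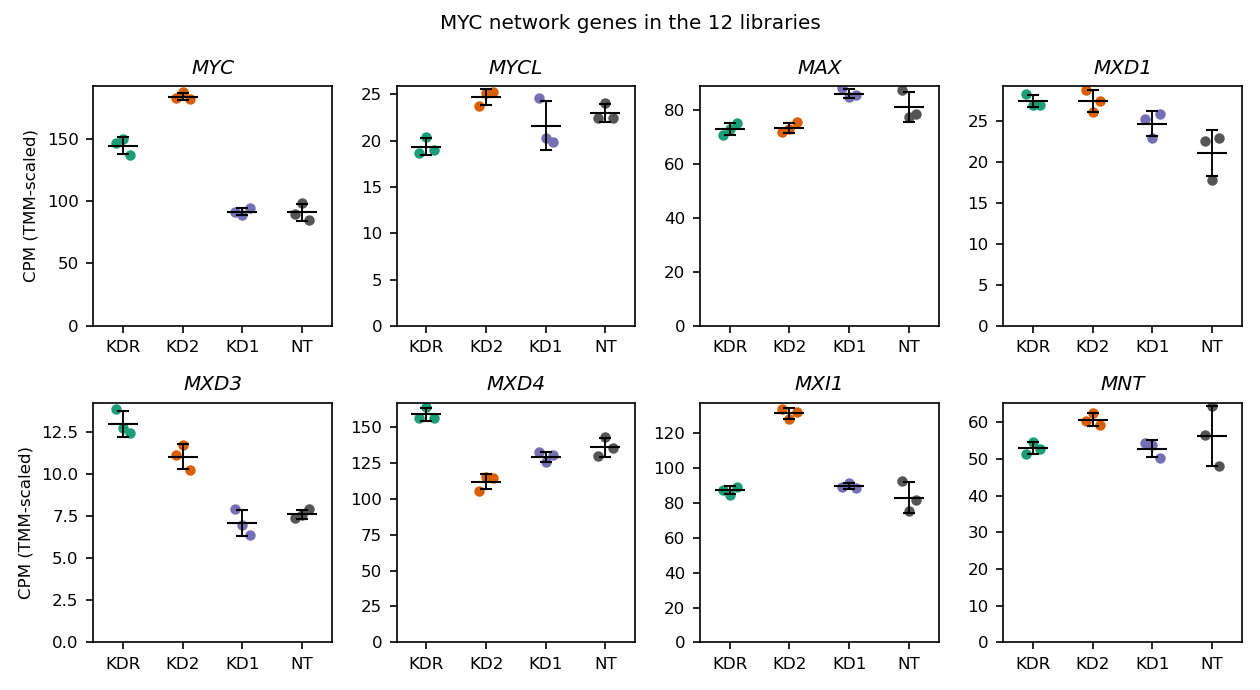
CPM (y axis, from 0) of the 8 MYC network genes tested in each library of KDR, KD2, KD1 and NT (x axis); dots are libraries, and the bar and whiskers are the mean and SD of 3 libraries. MYC and MXI1 stand highest in KD2, MXD4 lowest in KD2, and MXD3 and MXD1 lie above NT in both KDR and KD2.

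Of the nucleolar proteins, 5 of 6 were called higher in KD2 than in NT, with a median log2 fold change of 0.33, and the same 5 were called lower in KDR than in KD2. None of the 6 was called in KDR against NT. NCL, which encodes nucleolin, stood at 627, 652 and 656 CPM in KDR, 764, 781 and 767 CPM in KD2, and 621, 573 and 654 CPM in NT. KD2 lay above the others, which overlapped. NCL was 0.32 ± 0.05 above NT in KD2 (log2 fold change; edgeR, Benjamini-Hochberg adjusted p = 1.5e-05) and -0.26 ± 0.05 in KDR against KD2 (adjusted p = 0.00027).

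NPM1, which encodes the ribosome chaperone nucleophosmin, held 462, 468 and 483 CPM in KDR, 606, 569 and 580 CPM in KD2, and 468, 420 and 497 CPM in NT. Its pattern was that of NCL, with a log2 fold change of 0.34 ± 0.05 in KD2 against NT (edgeR, Benjamini-Hochberg adjusted p = 2.8e-05). GNL3, the nucleolar GTPase nucleostemin, was 0.35 ± 0.06 above NT in KD2, and DDX21, a nucleolar RNA helicase, 0.30 ± 0.06. GNL3 had the highest level per kilobase of annotated exon among the 57 genes, 86.5 CPM per kilobase in KDR, 102 in KD2, 80.2 in KD1 and 80.4 in NT. The length used counts every annotated exon base, 3238 for GNL3, 8311 for NPM1 and 8919 for NCL, so this rank depends on the annotation. In CPM, NCL and NPM1 stood above GNL3, with means in NT of 616, 462 and 260. NPM3, a relative of NPM1, was the least firm of the 5. It was 0.34 ± 0.12 above NT in KD2 (adjusted p = 0.032), KD2 overlapped NT replicate 2, which stood at 23.1 CPM against 17.4 and 15.7 CPM in the other NT libraries, and the call was lost without NT replicate 1 or 3 or KD2 replicate 1 or 3 and in a fit of KD2 and NT alone (adjusted p up to 0.17). GNL3L, a GTPase related to nucleostemin, was called in none of the comparisons.

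Of the snoRNP proteins, 5 of 9 were called higher in KD2 than in NT and 1 lower, with a median of 0.21. Among those of the box C/D class, which guide methylation of ribosomal RNA, FBL, NOP56 and NOP58 were all higher in KD2 than in NT. FBL, the methyltransferase fibrillarin, stood at 68.6, 65.6 and 69 CPM in KDR, 89.1, 101 and 102 CPM in KD2, 56.9, 47.1 and 54.7 CPM in KD1, and 59.9, 61.7 and 61.6 CPM in NT. All KDR libraries lay between KD2 and NT, and KD1 lay below NT. FBL was 0.67 ± 0.07 above NT in KD2 (log2 fold change; edgeR, Benjamini-Hochberg adjusted p = 1.7e-07) and -0.52 ± 0.07 in KDR against KD2 (adjusted p = 7.5e-06). In KDR against NT its log2 fold change was 0.15 ± 0.07, which was not called (adjusted p = 0.15). NOP56 and NOP58, the scaffold proteins of the same particle, were 0.40 ± 0.06 and 0.30 ± 0.07 above NT in KD2. The E-box of FBL shown earlier begins 7 bases into the transcript.

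Of the box H/ACA proteins, which guide conversion of uridine to pseudouridine, only DKC1 was called higher in KD2 than in NT. DKC1 encodes dyskerin, the enzyme of the particle, and its log2 fold change was 0.20 ± 0.06 (edgeR, Benjamini-Hochberg adjusted p = 0.0064; 0.052 in a fit of KD2 and NT alone). NOP10, its small partner, was called lower in KD2 than in NT, at 34.8, 32.6 and 32.4 CPM in KDR, 32.5, 29.4 and 33.6 CPM in KD2, and 41.9, 51.7 and 32 CPM in NT. NT replicate 3 lay within the range of KD2, and the call (log2 fold change -0.40 ± 0.12, adjusted p = 0.0094) was lost without NT replicate 2 or KD2 replicate 2 (adjusted p up to 0.057). The call of NOP10 in KDR against NT, -0.33 ± 0.12 (adjusted p = 0.035), was lost without NT replicate 1 or 2 or any KDR replicate, with upper quartile scaling, and in a fit of KDR and NT alone (adjusted p up to 0.19). NHP2 was 0.21 ± 0.08 in KD2 against NT without a call (adjusted p = 0.06; 0.0057 without NT replicate 2 and 0.035 without KD2 replicate 2) and was called lower in KDR than in KD2 (-0.35 ± 0.08, adjusted p = 0.0028). GAR1, the remaining core protein of the class, was called in neither. NOLC1, which gathers snoRNPs in the nucleolus, was 0.24 ± 0.05 above NT in KD2. RRP9, which binds the U3 snoRNA, was not called in KD2 against NT. Against KD1 it was called higher in KD2, a call lost in 3 of the 19 alternatives.

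Small subunit factors had the highest median of the groups, 0.39 in KD2 against NT, with 8 of 11 called higher and 0 lower. In KDR against KD2, 8 of 11 were lower and 0 higher. UTP20, a large scaffold of the processome that cuts the precursor, stood at 35.7, 34.5 and 34.7 CPM in KDR, 54.8, 56 and 53.5 CPM in KD2, and 39.6, 39.8 and 39.4 CPM in NT. The 3 groups did not overlap, with KDR lowest. UTP20 was 0.47 ± 0.07 above NT in KD2 (log2 fold change; edgeR, Benjamini-Hochberg adjusted p = 1.5e-05) and -0.65 ± 0.07 in KDR against KD2 (adjusted p = 2.3e-07). In KDR against NT it was -0.18 ± 0.07, which edgeR did not call (adjusted p = 0.07) and DESeq2 did.

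The processome proteins WDR43 and UTP4 were 0.42 ± 0.06 and 0.39 ± 0.09 above NT in KD2. BYSL and TSR1, which act late on the small subunit precursor, were 0.43 ± 0.10 and 0.46 ± 0.07 above NT, and NOB1, the nuclease that makes the mature end of the small subunit RNA, 0.50 ± 0.11. In BYSL and NOB1, NT replicate 2 lay above the other NT libraries, with 34.5 CPM of BYSL against 25.4 and 25 CPM, and 27.3 CPM of NOB1 against 18.9 and 19.7 CPM. Both calls were kept in all alternatives. DDX10, a nucleolar helicase, was 0.35 ± 0.08 above NT in KD2. NOP14, a further processome protein, was 0.24 ± 0.08 above NT (edgeR, Benjamini-Hochberg adjusted p = 0.016), a call that was lost without NT replicate 1 or KD2 replicate 2 and in a fit of KD2 and NT alone (adjusted p up to 0.095).

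RRP12, which takes part in export of the subunit precursors, had a pattern of its own among these 11 over KDR, KD2 and NT. It stood at 64.9, 61 and 58.2 CPM in KDR, 80.6, 78.2 and 88.8 CPM in KD2, and 69.5, 82.1 and 79.4 CPM in NT. KD2 overlapped NT, and all KDR libraries lay below both. All KD2 libraries lay above those of KD1 (74.6, 69.7 and 69.9 CPM). As for most of the 11, edgeR called RRP12 higher in KD2 than in KD1, a call lost in 4 of the 19 alternatives. RRP12 was 0.10 ± 0.07 in KD2 against NT (edgeR, Benjamini-Hochberg adjusted p = 0.33), -0.43 ± 0.07 in KDR against KD2 (adjusted p = 0.0001) and -0.33 ± 0.07 in KDR against NT (adjusted p = 0.0019). UTP15 and LTV1 were called in none of the comparisons.

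Of the large subunit factors, 4 of 9 were called higher in KD2 than in NT and 0 lower, with a median of 0.18, and 7 of 9 were called higher in KD2 than in KD1. The 4 were NOP16, WDR74, RRP1B and PPAN, at 0.43 ± 0.09, 0.29 ± 0.09, 0.27 ± 0.06 and 0.50 ± 0.13 on the log2 scale. The call of WDR74 was lost without NT replicate 3 or KD2 replicate 3 (edgeR, Benjamini-Hochberg adjusted p up to 0.071). PPAN shares 49.2% of its exon bases with P2RY11 and the readthrough gene PPAN-P2RY11, so its counts may miss or mix reads. In KDR against KD2, 5 of 9 were lower and 1 higher. Of these calls, that of NOP16 was kept in all 19 alternatives. Those of WDR74, RRP1B and RRS1 were lost in 4, 5 and 7 of them. PES1, BOP1 and WDR12 form a complex needed to process the large subunit RNA, and none of the 3 was called in KD2 against NT, with adjusted p of 0.097 for PES1 and 0.093 for BOP1 by edgeR with Benjamini-Hochberg adjustment. Against KD1, PES1 (log2 fold change 0.29 ± 0.07, adjusted p = 0.0036) and BOP1 (0.31 ± 0.08, adjusted p = 0.0044) were called higher in KD2. NT replicate 2 held 186 CPM of BOP1, against 138 and 143 CPM in the other NT libraries.

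PES1 stood at 88.4, 85.2 and 91.2 CPM in KDR, 106, 105 and 105 CPM in KD2, and 85.8, 108 and 88.3 CPM in NT. KD2 lay above KDR and above NT replicates 1 and 3, but not above NT replicate 2. PES1 was called lower in KDR than in KD2 (log2 fold change -0.25 ± 0.07; edgeR, Benjamini-Hochberg adjusted p = 0.011), and this call was lost without KDR replicate 2 (adjusted p = 0.057). NOP2, a ribosomal RNA methyltransferase, was the only gene of this group called higher in KDR, at 2.49, 2.26 and 2.6 CPM in KDR, 1.45, 1.28 and 1.29 CPM in KD2, and 1.52, 0.793 and 1.3 CPM in NT. KDR lay above the other libraries, and KD2 lay within the range of NT. These levels rest on 21 to 85 counts a library, and 54.4% of the exon bases of NOP2 are shared with another annotated gene. Its calls, 0.86 ± 0.31 in KDR against KD2 (adjusted p = 0.037) and 1.02 ± 0.31 in KDR against NT (adjusted p = 0.017), were not stable. The first was lost without any single KD2 or KDR library and when genes with low counts were kept (adjusted p up to 0.096), and the second without NT replicate 2 or KDR replicate 3 (up to 0.074).

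Polymerase I genes rose in KD2, with 6 of 8 called higher than NT, 0 lower, and a median of 0.27. POLR1E, which encodes a subunit that helps the enzyme start and elongate, stood at 36.6, 33.7 and 34.2 CPM in KDR, 51.1, 50.7 and 52.9 CPM in KD2, 29.2, 29.7 and 30.6 CPM in KD1, and 28, 30.6 and 26.5 CPM in NT. The libraries fell into 3 levels without overlap: KD2 highest, KDR between, and KD1 and NT together. POLR1E was 0.86 ± 0.08 above NT in KD2 (log2 fold change; edgeR, Benjamini-Hochberg adjusted p = 6.8e-09), -0.57 ± 0.08 in KDR against KD2 (adjusted p = 4.3e-06) and 0.30 ± 0.08 above NT in KDR (adjusted p = 0.0064). Beside MYC, POLR1E was the only gene of the 56 called higher in KD2, lower in KDR than in KD2, and still higher in KDR than in NT.

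POLR1B, the second largest subunit and part of the active site, stood at 63.8, 64.1 and 64.4 CPM in KDR, 89.3, 90.9 and 87.2 CPM in KD2, and 63.6, 65 and 59.6 CPM in NT. KD2 stood apart, and KDR lay within the range of NT. Its log2 fold change was 0.51 ± 0.06 in KD2 against NT (edgeR, Benjamini-Hochberg adjusted p = 8.2e-07) and -0.48 ± 0.06 in KDR against KD2 (adjusted p = 2.6e-06). POLR1A, the largest subunit, was 0.37 ± 0.06 above NT in KD2, and POLR1C, which polymerases I and III share, 0.30 ± 0.08. The other shared subunit, POLR1D, was not called in KD2 against NT.

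Of the factors that load polymerase I, UBTF, which binds the ribosomal DNA promoter, was 0.20 ± 0.05 above NT in KD2 (edgeR, Benjamini-Hochberg adjusted p = 0.0053). TAF1D, a subunit of the selectivity factor, was 0.26 ± 0.08 above NT in KDR (adjusted p = 0.023) and 0.24 ± 0.08 above NT in KD2 (adjusted p = 0.023). The call in KDR was lost without KDR replicate 3 (adjusted p up to 0.17 over all alternatives), and that in KD2 without KD2 replicate 1 (up to 0.12), and both were lost in fits of only their own groups. RRN3, which makes the enzyme ready to start, was called in none of the comparisons.

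Of the polymerase III genes, 2 of 5 were called higher and 1 lower in KD2 than in NT (40% and 20%). Of all genes tested, 17.8% were higher and 18.2% lower, and a list of 5 genes is too short to set against these shares. POLR3A, the largest subunit, was 0.24 ± 0.07 above NT (edgeR, Benjamini-Hochberg adjusted p = 0.0071), a call that was lost without KD2 replicate 1 (adjusted p = 0.055). POLR3G, the form of a subunit that is typical of dividing and stem cells, stood at 2.69, 2.32 and 2.6 CPM in KDR, 3.21, 4.44 and 3.34 CPM in KD2, and 2.11, 1.59 and 1.87 CPM in NT, from 44 to 128 counts a library. The 3 groups did not overlap. POLR3G was 0.98 ± 0.23 above NT in KD2 (adjusted p = 0.0018), while KDR against KD2 (-0.53 ± 0.23, adjusted p = 0.078) and KDR against NT (0.45 ± 0.23, adjusted p = 0.17) were not called.

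MAF1, a repressor of polymerase III, was lower in KD2. It stood at 158, 163 and 157 CPM in KDR, 137, 147 and 148 CPM in KD2, and 164, 211 and 176 CPM in NT. The groups did not overlap, and NT replicate 2 was the highest library. MAF1 was -0.35 ± 0.07 in KD2 against NT (log2 fold change; edgeR, Benjamini-Hochberg adjusted p = 0.00045), kept in all alternatives, and -0.21 ± 0.07 in KDR against NT (adjusted p = 0.035), a call that was lost without NT replicate 2 or any of the KDR replicates, with upper quartile scaling, and in a fit of KDR and NT alone (adjusted p up to 0.11). POLR3B, the second largest subunit, and BRF1, which brings the enzyme to its genes, were not called in these comparisons.

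**Figure D4:**
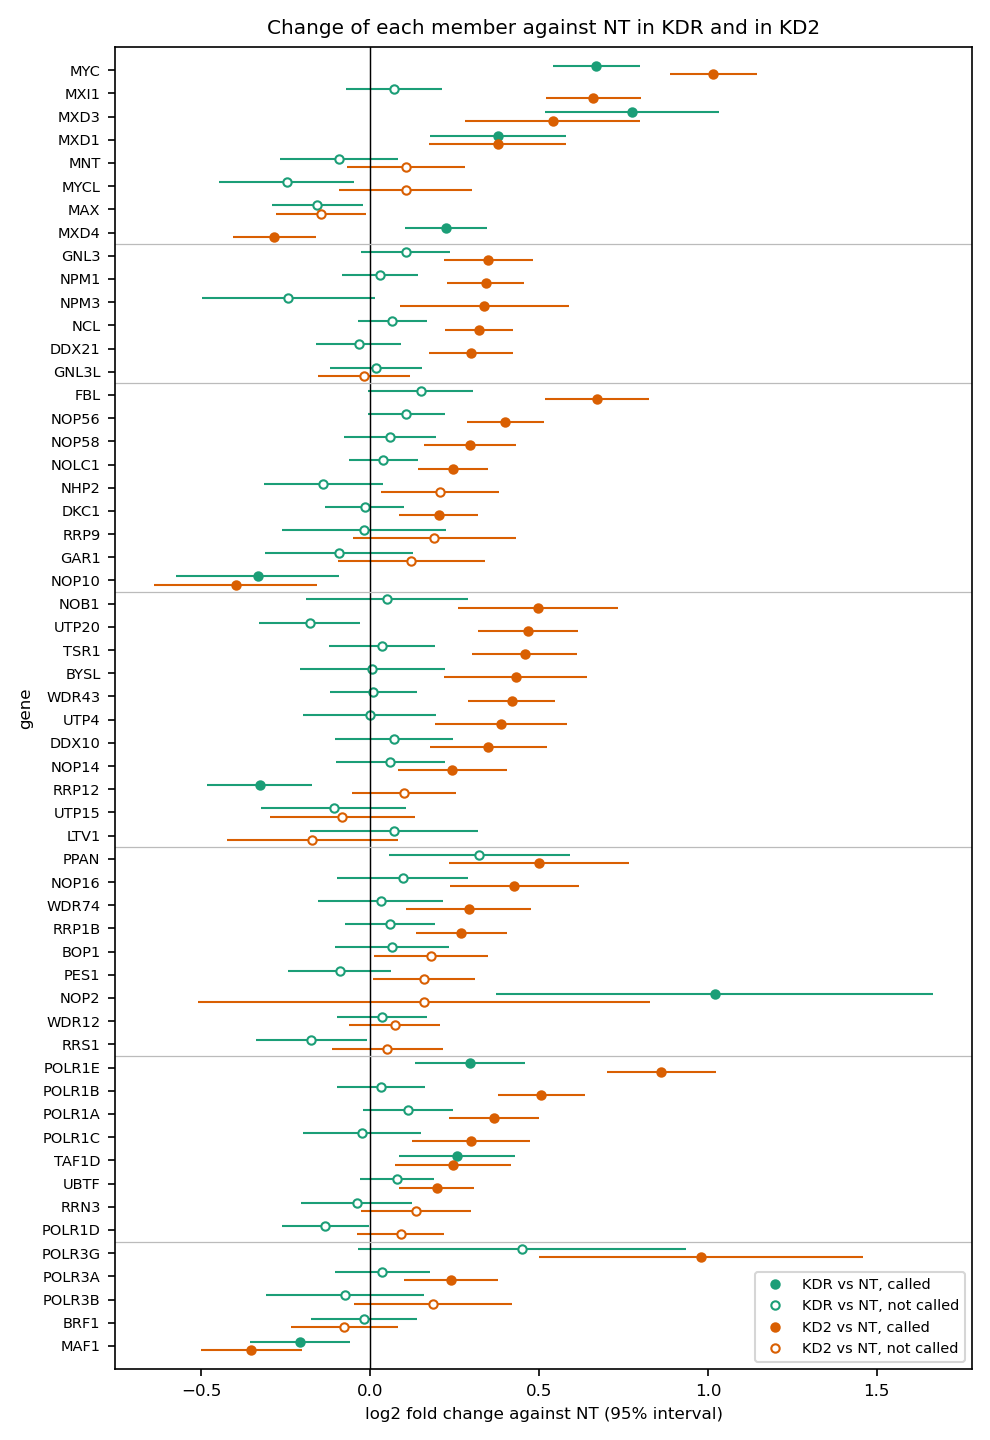
Log2 fold change against NT (x axis) in KDR (green) and in KD2 (orange) of the 56 genes tested (rows, grouped by role), with 95% intervals; filled points were called and open points were not. The orange points lie right of 0 for most genes, and the green intervals cross 0 for most, with MYC, MXD3, MXD1, MXD4, POLR1E, TAF1D and NOP2 called higher in KDR.

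Of the 56 genes, 25 were called higher in KD2 than in NT, lower in KDR than in KD2, and not called in KDR against NT. They include NCL, NPM1, GNL3, DDX21, FBL, NOP56, NOP58, DKC1, UTP20, WDR43, BYSL, POLR1A, POLR1B and POLR1C. A missing call in KDR against NT does not show that the level was the same. In 12 genes none of the 3 comparisons gave a call, MAX and RRN3 among them. The share of all genes tested with each of these patterns was not counted, so the 25 and the 12 have no background here. KD2 is part of both the comparison with NT and that with KDR, so a rise in the former and a fall in the latter are not independent. Of the 37 calls in KD2 against NT, 30 were kept in all 19 alternatives, as were 27 of 35 in KDR against KD2 and 6 of 10 in KDR against NT.

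No gene was called in KD1 against NT. Of all 19373 genes tested, edgeR called 0 (0%) and DESeq2 called 0, and edgeR called 23 when genes with low counts were kept. At an unadjusted p under 0.05 there were 3 of the 56 genes and 1185 of all genes. The median log2 fold change of the 56 genes was -0.02. The single values ran between -0.22 ± 0.08 for RRS1 and 0.23 ± 0.10 for MXD1, and FBL was at -0.21 ± 0.08 (edgeR, Benjamini-Hochberg adjusted p = 0.79 for each). Set against KD1 in place of NT, KD2 had 38 of 56 genes higher and 3 lower, where 17.9% and 17.5% of all genes tested were called. MYC was 1.00 ± 0.06 above KD1 in KD2 (adjusted p = 1.1e-11) and FBL 0.88 ± 0.07 (adjusted p = 2.8e-09). KD2 is on top in this comparison too, so it is not independent of the comparison with NT.

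Other genes of the same machinery, listed for their function, had more calls higher than lower in KD2 against NT. Of 122 further assembly and polymerase genes, 46 were higher and 8 lower in KD2 than in NT (37.7% and 6.56%), 2 were higher and 41 lower in KDR than in KD2, and 9 were higher and 13 lower in KDR than in NT. Further large subunit factors had 23 of 50 higher and 1 lower in KD2 than in NT, such as MDN1, the large ATPase that remodels the subunit precursor, at 0.60 ± 0.06 on the log2 scale, DDX18, a nucleolar helicase, at 0.52 ± 0.07, and the export adaptor NMD3 at 0.54 ± 0.08. Further small subunit factors had 15 of 44 higher and 4 lower. They included the processome proteins WDR3 at 0.74 ± 0.06 and NOL11 at -0.60 ± 0.09, the second of which was opposite to most of the list.

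Further polymerase I and III genes had 8 of 28 higher and 3 lower in KD2 than in NT (28.6% and 10.7%), against 17.8% and 18.2% of all genes tested. POLR3GL, the paralog that takes the place of POLR3G in most tissues, was 0.77 ± 0.18 above NT, so both forms were called higher. POLR2L, a small subunit that all 3 nuclear polymerases hold, was -0.50 ± 0.10. Of textbook targets of MYC outside ribosome assembly, 10 of 23 were higher and 5 lower (43.5% and 21.7%). The share called higher was above that of all genes tested, and the share called lower was near it. The factor TFAP4 was at 0.67 ± 0.09 and the amino acid carrier SLC7A5 at -0.65 ± 0.06.

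**Figure D5:**
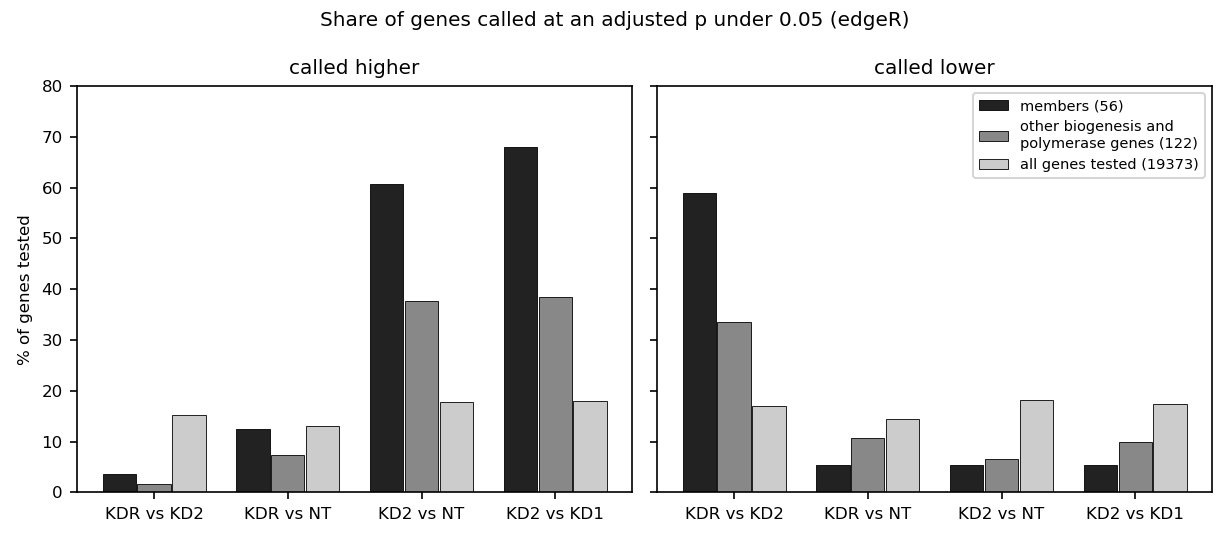
Percent of genes called higher (left) and lower (right) by edgeR at an adjusted p under 0.05 in 4 comparisons (x axis), for the 56 genes tested, 122 other assembly and polymerase genes, and all 19373 genes tested. In KD2 against NT the share called higher is 60.7% of the 56 genes, 37.7% of the 122 and 17.8% of all genes.

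The share of genes called higher in KD2 was not larger among those with an E-box. Of the 46 genes tested with a promoter window, 9 of 17 with an E-box were higher and 2 lower in KD2 than in NT (median log2 fold change 0.24), and 19 of 29 without an E-box were higher and 0 lower (median 0.30). In KDR against KD2, 9 of 17 with an E-box and 17 of 29 without were lower. The genes that lacked a window, MYC, POLR1E and POLR3G among them, are in neither group. Of the other assembly and polymerase genes, 32 of the 107 with a window had an E-box (29.9%).

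Genes of cell division moved in the same comparisons. MKI67, a marker of cycling cells, stood at 47.5 to 48.3 CPM in KDR, 97.7 to 103 CPM in KD2 and 20.7 to 22.9 CPM in NT, without overlap. All 6 proliferation genes (MKI67, TOP2A, PCNA, MCM2, MCM5 and CCNB1) were called higher in KD2 than in NT, with a median log2 fold change of 1.30, and all 6 lower in KDR than in KD2, with a median of -0.79. In KDR against NT, 5 of the 6 were higher. The 9 luminal prostate markers summed to 16130 to 16560 CPM in KDR, 10750 to 11070 CPM in KD2, 16110 to 16480 CPM in KD1 and 16010 to 19010 CPM in NT, and 8 of the 9 were called lower in KD2 than in NT. The part of these shifts in the changes of the MYC and ribosome assembly genes was not tested. Summed markers of fibroblasts, basal, endothelial and neuroendocrine cells stayed at or below 4.93, 3.54, 0.707 and 4.57 CPM in every library.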

How the data were processed

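The authors deposited raw counts of reads per gene for each of the 12 libraries; per the file headers, featureCounts 1.6.4 counted exons and summed them by gene, using Ensembl release 111 (GRCh38). The command sets no option for strand, for read pairs, or for reads that overlap several genes or map to many places. FastQC, cutadapt and HISAT2 are further tools of the submitters' processing notes, with versions not given in the sources used here.

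These counts were tested with edgeR 4.0.16 (R 4.3.3). The filter filterByExpr kept 19373 genes, TMM factors (trimmed mean of M values) scaled the libraries, and 1 quasi-likelihood model with the group as its only term was fitted to all 12 libraries. P-values were adjusted by the method of Benjamini and Hochberg over all genes tested in a comparison, and a gene was called under 0.05. CPM values are counts per 1000000 scaled by TMM, and SE and intervals come from the model. The model was also run on simulated counts with the same spread in all groups, unlike the wider spread of NT here, and no statement rests on that run.

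The 57 genes, the further lists and the tests were chosen with earlier results of these data known. All 57 genes may be named, and of each further list up to 4 genes with the lowest adjusted p in KD2 against NT. Alternatives were DESeq2 1.42.0, its size factors in edgeR, upper quartile scaling, no filter on low counts, a floor of 1 CPM in 3 libraries, fits without the groups that are not compared, a block for the replicate number, and leaving out each library. Promoter windows come from RefSeq on GRCh38.p14, matched by symbol. Exon sharing counts bases that another gene of the deposited annotation also covers. It was above 25% in 6 of the 57 genes: NOP2, PPAN, MXD3, LTV1 (34.7%), NHP2 (28%) and TSR1 (26.9%).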

Additional observations from a re-analysis of the deposited data

How the results depend on the processing

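Replicate numbers in the labels give no pairing of libraries: among 18 pairs with the same number, 1 had a correlation of deviations above 0.1 (range -0.16 to 0.25). With the replicate block, 6882 genes were called in KD2 against NT, with 35 of the 56 genes higher, and in KDR against KD2 34 were lower. Without a filter on low counts, 23 genes were called in KD1 against NT, the median log2 fold change of the 56 genes was 0.00 in KD1 against NT and 0.28 in KD2 against NT, and 1 gene was higher in KDR against KD2. With upper quartile scaling, the medians were 0.23 in KD2 against NT, -0.19 in KDR against KD2, 0.064 in KDR against NT and 0.25 in KD2 against KD1, and 1 gene was lower in KDR against NT. In fits of only the groups compared, 1 gene was lower in KDR against NT and 5 in KD2 against KD1.

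Leaving out 1 library at a time gave medians of -0.061 to -0.0053 in KD1 against NT, 0.24 to 0.28 in KD2 against NT, -0.26 to -0.23 in KDR against KD2, 0.0047 to 0.038 in KDR against NT and 0.26 to 0.29 in KD2 against KD1. The count of the 56 genes called higher then ran over 31 to 40 in KD2 against NT and 1 to 3 in KDR against KD2. The count called lower ran over 28 to 40 in KDR against KD2, 1 to 5 in KDR against NT and 1 to 5 in KD2 against KD1. The cause of these differences was not tested. No direction of a called gene turned under any alternative run. A median that moved by more than 0.0154, the SD of library medians within groups, is listed here. Intervals cover the spread between these libraries only, and genes with few counts, POLR3G and NOP2, are measured least precisely.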
